A study of Homo sapiens with 6 samples.

Results

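The Notch genes measured here were 3 receptors (NOTCH1, NOTCH2, NOTCH3), 4 ligands (JAG1, JAG2, DLL1, DLL3) and 3 target genes (HES1, HEY1, HEY2). They were taken by gene symbol from the deposited array table. All 10 were found among the 18417 genes tested, each with 1 probe set that carried its symbol alone. DLL3 and HEY1 were the members with a large difference. Both were lower in drug-treated colonies than in parent cells, by 4.22-fold and 3.11-fold, whereas none of the other 8 differed by more than 1.20-fold.

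Notch receptors are single-pass membrane proteins that are activated by ligands of the Jagged and Delta families on neighbouring cells. Ligand binding exposes the receptor to an ADAM protease and then to the gamma-secretase complex, which frees the intracellular domain. That domain enters the nucleus and joins the DNA-binding protein RBPJ and a Mastermind coactivator at target genes such as the HES and HEY repressors. In mice, Notch signalling through RBPJ and Hes1 maintains melanoblasts and melanocyte stem cells.

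The samples came from WM164, a melanoma cell line with mutant BRAF. The 3 colony samples, named IDTC colonies in the labels and described there as resistant, had been exposed to the BRAF inhibitor PLX4032 (vemurafenib) at 500 nM for 60 days. The 3 parent samples are labelled as control and untreated, while the series title gives them DMSO, the solvent. All 6 came from this single line grown in RPMI medium with serum, with no other genetic change stated, and each was hybridised to its own 1-colour Affymetrix whole-transcript array. The question was how the colonies, after long exposure, differ in expression from the parent line. The design text speaks of triplicates with RNA isolated independently but not of separate cultures. The p-values and SE of limma rest on the spread among the 3 samples of a group, drawn toward a value pooled over all genes. As separate cultures are not stated, the spread among samples may be technical.

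Array medians lay between 6.25 and 6.34 on the log2 scale. Precision is limited by the small number of arrays. Colonies were higher at 20.9% of all genes and lower at 22.9%, which makes 43.8% called in either direction (limma, Benjamini-Hochberg adjusted p under 0.05). Of the melanocyte lineage markers, 6 of 7 measured lay above the median expression of all genes, and TYRP1 was the exception. None of 6 endothelial and none of 5 keratinocyte markers passed the limma test (0 and 0 also at an unadjusted p under 0.05), whereas 2 of 6 fibroblast and 1 of 6 leukocyte markers did, all 3 lower in colonies. The fibroblast calls were PDGFRA (-0.57, adjusted p = 0.000175) and LUM (-0.34, adjusted p = 0.0142, and 0.0576 without colony replicate 1), and the leukocyte call was CSF1R (-0.23, adjusted p = 0.0344), which ended when any one array other than parent replicate 1 was left out (adjusted p 0.0556 to 0.116). The other fibroblast markers did not pass. COL1A1 (0.20, limma unadjusted p = 0.038, adjusted p = 0.0814), COL3A1 (0.15) and DCN (0.10) lay higher in colonies, and COL1A2 (-0.03) lower. The median difference of the fibroblast list was 0.03. The summed linear level of the fibroblast markers, of which LUM had the highest mean, was 621 to 634 in colonies and 666 to 695 in parent cells, without overlap. The other 3 sums overlapped. That of the endothelial markers was 288 to 292 in colonies and 273 to 303 in parent cells, that of the keratinocyte markers 307 to 316 in colonies and 297 to 354 in parent cells, and that of the leukocyte markers 237 to 243 in colonies and 241 to 256 in parent cells. Of the melanocyte markers, 5 of 7 were called. MLANA was 2.72-fold lower (-1.45, adjusted p = 4.14e-07) and TYRP1 was lower as well (-0.23, adjusted p = 0.0252), a call that ended without parent replicate 3 (adjusted p = 0.0749), colony replicate 2 (adjusted p = 0.0713) or colony replicate 3 (adjusted p = 0.0864). PMEL (0.33), S100B (0.57) and SOX10 (0.42) were higher. MITF (0.0016, adjusted p = 0.986) and TYR (-0.12, adjusted p = 0.137) did not pass. The summed linear level of this list, which its brightest probe sets dominate, was 16724 to 17009 in colonies and 15000 to 15202 in parent cells. The part of these marker differences in the results below was not tested.

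Of the 10 members, 2 were called higher in colonies and 4 lower. The share called (6 of 10) stood beside 43.8% of all genes, and beside 68% of the genes above the median expression, where 8 of the 10 members lay. A share of this size is therefore near the background for such genes. A called fall of at least 2-fold was found in 2 members, DLL3 and HEY1, and in 2.76% of all genes. Of the 9208 genes above the median expression, 368 had such a fall. The median difference over the members was -0.07 on the log2 scale, against -0.0042 over all genes. Colony and parent values did not overlap for 7 members (2 higher, 5 lower), as for 50.8% of all genes, and 26.4% of all genes lay wholly lower in colonies. Among the 9208 genes above the median expression, 7017 did not overlap and 3774 lay wholly lower, so these member counts are near that background too. Without colony replicate 2, the number of members called lower was 2 rather than 4, because NOTCH2 and JAG1 no longer passed. As the samples are bulk RNA, a smaller share of cells with a transcript and less of it per cell cannot be told apart.

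**Figure D1:**
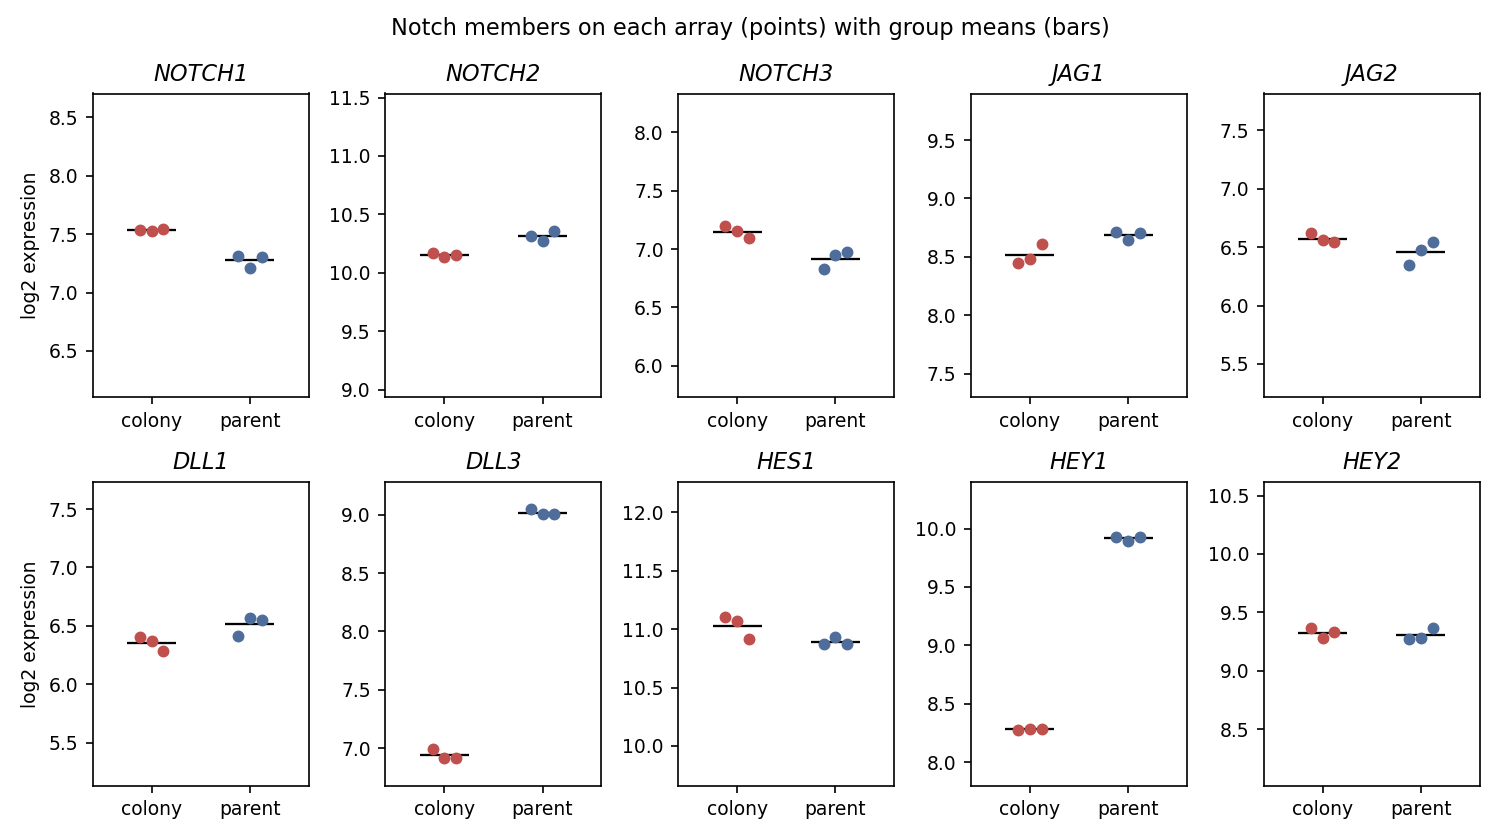
Log2 expression of each member on the 3 colony arrays and the 3 parent arrays (points) with group means (bars); each vertical axis spans the same range around the gene's mean. DLL3 and HEY1 show wide gaps between the groups, while the other 8 members lie close together in both.

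NOTCH1, the receptor best known from T-cell leukaemia, was slightly higher in colonies. Its log2 values were 7.53, 7.53 and 7.54 in colonies and 7.31, 7.21 and 7.30 in parent cells. All 3 colony arrays lay above all 3 parent arrays. The difference was 0.26 ± 0.05 on the log2 scale (± SE, 95% interval 0.15 to 0.37, limma adjusted p = 0.00259), a 1.20-fold change. Among all genes, 36.3% had a larger absolute difference.

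NOTCH3, a receptor prominent in vascular smooth muscle, moved the same way by a similar amount. It stood at 7.20, 7.16 and 7.09 in colonies and at 6.83, 6.95 and 6.97 in parent cells. The groups did not overlap, with a gap of 0.12 between the lowest colony and the highest parent value. The difference was 0.23 ± 0.06 (adjusted p = 0.0106). Among the 50 nearest genes along the chromosome that lay above the median expression, the median difference was -0.27 for NOTCH3 and 0.07 for NOTCH1. Of these neighbours, 41 lay below 0 for NOTCH3 and 17 for NOTCH1, so NOTCH3 was higher beside a neighbourhood that was mostly lower.

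NOTCH2, the receptor implicated in melanocyte lineage maintenance in mice together with Notch1, was slightly lower. Its values were 10.17, 10.14 and 10.15 in colonies and 10.31, 10.28 and 10.36 in parent cells, without overlap. The difference was -0.16 ± 0.04 (adjusted p = 0.0175). The call ended after quantile normalization (-0.11, adjusted p = 0.102) and without colony replicate 2 (adjusted p = 0.0602). The 50 neighbours of NOTCH2 had a median of 0.08, and 23 of them were below 0.

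A further probe set is annotated to NOTCH2 together with NOTCH2NLA and NOTCH2NLB, human-specific partial copies of the gene, and had been left out because it has 3 symbols. It read 10.23, 10.23 and 10.11 in colonies and 9.9914, 9.9995 and 10.10 in parent cells. Here the colony arrays were the higher ones, so that the sign was opposite to that of the NOTCH2 probe set. The difference of 0.16 ± 0.06 did not pass the test over every probe set of the table (limma adjusted p = 0.0942), where the single-symbol NOTCH2 probe set did (adjusted p = 0.033). Signal from NOTCH2 and from its copies cannot be told apart in this probe set, and the direction for NOTCH2 is uncertain to that extent.

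**Figure D2:**
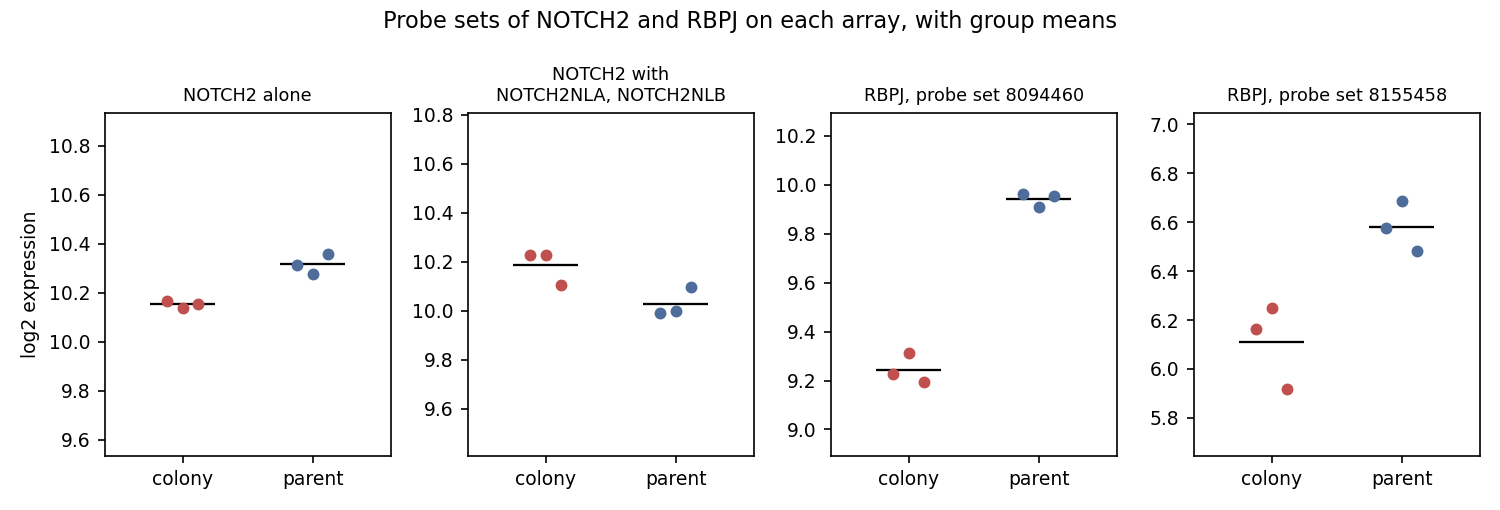
Log2 expression on each array (points) with group means (bars) for the NOTCH2 probe set, the probe set shared with NOTCH2NLA and NOTCH2NLB, and both RBPJ probe sets, colonies left of parent cells. The NOTCH2 probe sets differ in opposite directions by 0.16, and both RBPJ probe sets are lower in colonies.

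DLL3 had the largest difference of the 10 members. It encodes a divergent Delta ligand that stays largely inside the cell and does not activate receptors on neighbouring cells. Its log2 values were 6.99, 6.92 and 6.92 in colonies and 9.05, 9.00 and 9.00 in parent cells. The groups were separated by 2.01, far beyond the spread within either (SD 0.05 in colonies and 0.02 in parent cells, n = 3 each). Parent replicates 2 and 3 held an identical value, so the SD of the parent cells may be understated. The difference was -2.08 ± 0.04 (95% interval -2.18 to -1.97, limma adjusted p = 1.33e-07). Only 170 of the 18417 genes (0.923%) had a larger absolute difference. The 50 expressed neighbours of DLL3 had a median of 0.03, and 22 of them were below 0. Over the 13 alternative settings the difference stayed between -2.10 and -2.06.

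The activating ligands differed little. JAG1, a Jagged ligand, read 8.45, 8.48 and 8.61 in colonies and 8.71, 8.64 and 8.70 in parent cells. The closest values of the groups lay 0.03 apart. Its difference of -0.17 ± 0.06 passed narrowly (adjusted p = 0.0407). That call held when colony replicate 3 was left out (-0.22, adjusted p = 0.013) and ended when any one of the other 5 arrays was left out. The adjusted p was then 0.0871 without parent replicate 1, 0.0584 without parent replicate 2 and 0.11 without parent replicate 3. It was 0.133 without colony replicate 1 and 0.128 without colony replicate 2. The call also ended after quantile normalization (adjusted p = 0.062) and with every probe set tested (adjusted p = 0.0748). The 50 neighbours of JAG1 had a median of 0.22.

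DLL1, the Delta ligand that activates receptors in many tissues, read 6.40, 6.37 and 6.28 in colonies and 6.42, 6.57 and 6.55 in parent cells. The groups did not overlap but came within 0.01 of each other. The difference of -0.16 ± 0.06 did not pass (95% interval -0.30 to -0.02, adjusted p = 0.0674). It passed without parent replicate 1 (-0.21, adjusted p = 0.0185), with arrays shifted to a common median (adjusted p = 0.0236) and after quantile normalization (adjusted p = 0.0155).

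JAG2, the other Jagged ligand, read 6.62, 6.56 and 6.55 in colonies and 6.35, 6.48 and 6.55 in parent cells. The lowest colony value and the highest parent value were identical. The difference was 0.12 ± 0.06 (95% interval -0.03 to 0.26, adjusted p = 0.177). Identical values among the 6 arrays occurred in 4 of the 10 members (JAG2, DLL3, HES1 and HEY1) and in 5595 of the 18417 genes. They are a property of the deposited table and can make the spread of a group look smaller than it was.

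**Figure D3:**
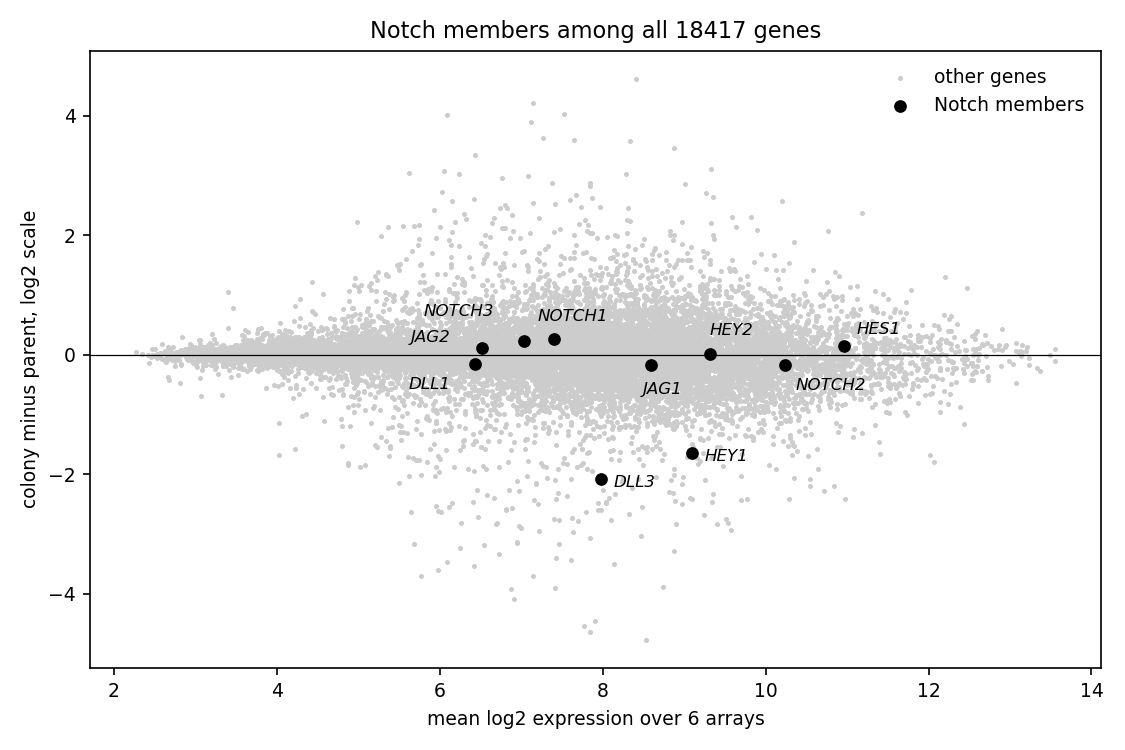
Colony minus parent difference (log2 scale) against mean log2 expression over the 6 arrays for all 18417 genes (grey), with the 10 members in black. DLL3 (-2.08) and HEY1 (-1.64) lie in the lower fringe of the cloud, and the other 8 members lie inside its dense centre.

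HEY1, a basic helix-loop-helix repressor and a direct target of the Notch and RBPJ complex, was lower in colonies. Its log2 values were 8.28, 8.28 and 8.28 in colonies and 9.93, 9.90 and 9.92 in parent cells. The groups were 1.61 apart. Colony replicates 2 and 3 held an identical value, so the spread of the colony values may be understated. The difference was -1.64 ± 0.04 (95% interval -1.73 to -1.54, limma adjusted p = 1.82e-07). A larger absolute difference was found for 316 genes (1.72%). The median of its 50 expressed neighbours was -0.40, with 35 of them below 0, so that HEY1 differed beside a neighbourhood that was lower in colonies too. The alternative settings gave between -1.66 and -1.59.

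HES1, the most widely used readout of Notch activity, did not pass the test. It read 11.10, 11.07 and 10.92 in colonies and 10.87, 10.93 and 10.87 in parent cells. Colony replicate 3 lay just below parent replicate 2, so the groups overlapped. The difference was 0.14 ± 0.06 (95% interval 0.0008 to 0.28, adjusted p = 0.101), opposite in sign to that of HEY1. It passed without colony replicate 3 (0.19, adjusted p = 0.0206), after quantile normalization (adjusted p = 0.0295), with only genes above the median expression (adjusted p = 0.048) and with trend and robust settings (adjusted p = 0.0426).

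HEY2, a repressor closely related to HEY1 and known for its part in heart development, read 9.36, 9.28 and 9.33 in colonies and 9.27, 9.28 and 9.37 in parent cells. The values of the groups were interleaved. The difference was 0.02 ± 0.05 (adjusted p = 0.772), and its 95% interval of -0.09 to 0.14 holds no change of the size seen in HEY1. Its sign turned when arrays were shifted to a common median (-0.0043).

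**Figure D4:**
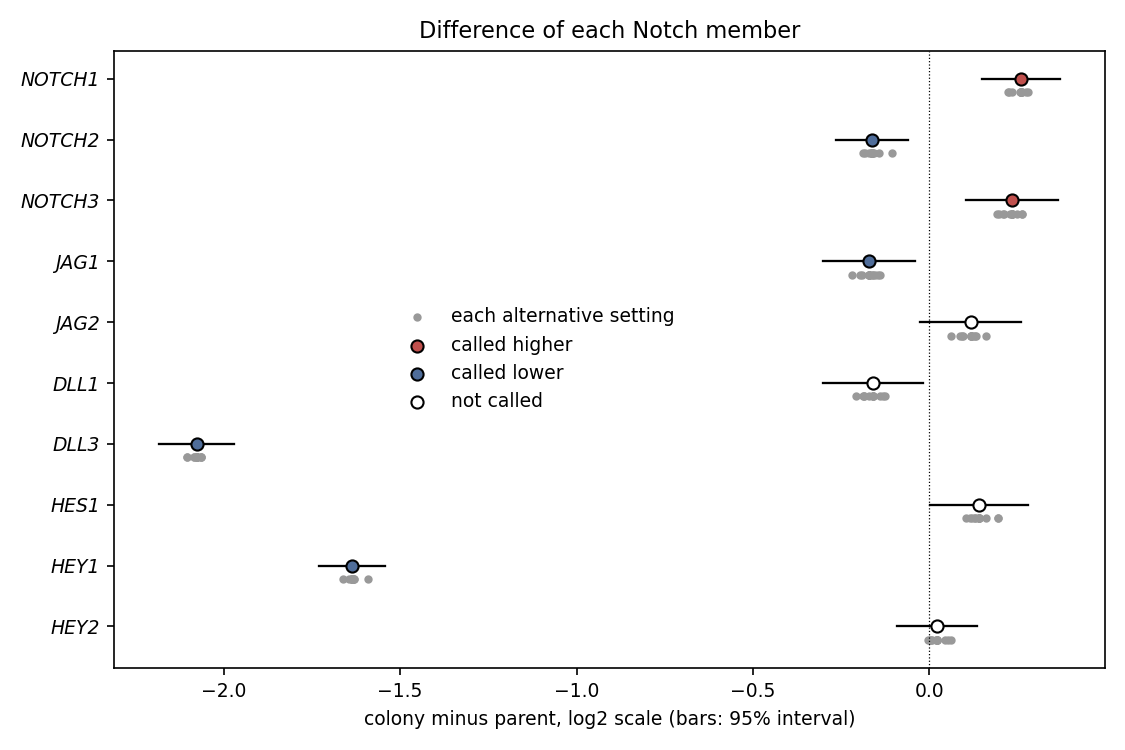
Colony minus parent difference of each member on the log2 scale, with its 95% interval (bars), coloured by call, and the values under the alternative settings (grey points). The intervals of DLL3 and HEY1 lie below -1.5, and those of the other 8 members lie between -0.30 and 0.37.

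The unequal change of relatives was read within each array, as the log2 value of one gene minus that of the other. This was done for 3 pairs chosen after the values were seen. Such a value compares different probe sets and is no relative level, so only its shift between the groups is read. HEY1 minus HEY2 was -1.05 ± 0.04 in colonies and 0.61 ± 0.05 in parent cells (SD, n = 3 each), a shift of -1.66. HEY1 minus HES1 was -2.75 ± 0.10 in colonies and -0.97 ± 0.05 in parent cells, a shift of -1.77. DLL3 minus DLL1 was 0.59 ± 0.05 in colonies and 2.51 ± 0.11 in parent cells, a shift of -1.92. In all 3 pairs the groups did not overlap, which follows from the wide gaps of HEY1 and DLL3 and is no separate support. The exact 2-sided permutation test gave p = 0.1 for each (adjusted p = 0.1), the smallest value that 3 against 3 arrays allow, so this design cannot pass 0.05 for a single pair.

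RefSeq promoter sequences (GRCh38.p14, 250 bases before to 50 after the start) were matched by symbol for 7 of the 10 members, all but DLL1, DLL3 and HEY1. They were searched on both strands for TGGGAA, the core of the RBPJ site, and for CACGTG, an E-box form bound by HES and HEY proteins. The RBPJ core occurred in 2 of the 7, HES1 and HEY2, with 2 matches each. Of all 35116 promoters of this length, 24% held at least 1 match and 3.8% at least 2. CACGTG occurred in none of the 7 and in 7.26% of all promoters. The transcripts of HES1 and HEY2 were among those that did not pass the test. A match is only a description of the sequence, and binding was not measured.

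The HES1 and HEY2 stretches are shown because they hold these matches, in capitals, on the strand of the gene. In HES1 both exact matches read TGGGAA in the same orientation, from -84 to -79 and from -70 to -65. Sites that differ from these letters were not searched for, so the number and orientation of all RBPJ sites are not given. In HEY2 the first reads as the reverse complement, from -213 to -208, and the second spans the start, from -3 to 3. The HES1 stretch is chr3:194135898-194136147 on the plus strand. The HEY2 windows are chr6:125749407-125749436 and chr6:125749617-125749646, also on the plus strand.
HES1 upstream: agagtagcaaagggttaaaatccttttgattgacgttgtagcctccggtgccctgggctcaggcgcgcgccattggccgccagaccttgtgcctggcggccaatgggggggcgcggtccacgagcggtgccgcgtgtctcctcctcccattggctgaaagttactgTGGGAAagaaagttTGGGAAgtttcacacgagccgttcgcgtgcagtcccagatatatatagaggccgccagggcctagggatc
HEY2 first match: tccgcggccgcgTTCCCAcgcctcggctgg
HEY2 second match: agagttgcggcgTGGGAAagagccgctagg

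RBPJ itself, the DNA-binding protein that recognises this core, was lower in colonies. Its log2 values were 9.23, 9.31 and 9.20 in colonies and 9.96, 9.91 and 9.95 in parent cells. The groups did not overlap, and the difference was -0.70 ± 0.05 (adjusted p = 1.86e-05), a 1.62-fold change. A second probe set with the same symbol read 6.16, 6.25 and 5.92 in colonies and 6.58, 6.69 and 6.48 in parent cells, again lower (-0.47 ± 0.10, adjusted p = 0.0137 over every probe set).

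The rest of the pathway was read from 7 lists by role, which named 75 further genes, of which 69 were measured. Of these, 19 were higher in colonies, 20 lower and 30 not past the test. The share called was 56.5%, against 43.8% of all genes, and 51 of the 69 lay above the median expression, where 68% of all genes were called. The median difference was -0.03.

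Among the 8 other receptors and ligands, 3 were lower and none higher, with a median of -0.08. MFAP2, a microfibril protein reported to bind Jagged ligands, read 7.86, 8.01 and 7.24 in colonies and 9.91, 10.07 and 10.07 in parent cells. Colony replicate 3 was the lowest, and the difference was -2.31 ± 0.18 (adjusted p = 3.57e-05). DNER, a neuronal EGF-repeat protein described as a Notch ligand, fell by 0.82 ± 0.07 on the log2 scale (adjusted p = 6.8e-05). DLL4, the Delta ligand of endothelial cells, averaged 6.02 in colonies and 6.26 in parent cells (-0.24 ± 0.06, adjusted p = 0.0187). Its call ended without parent replicate 2 (adjusted p = 0.0682), parent replicate 3 (adjusted p = 0.0713) or colony replicate 1 (adjusted p = 0.0668). NOTCH4, a mainly endothelial receptor, averaged 6.69 in colonies and 6.67 in parent cells (0.02 ± 0.07, adjusted p = 0.873), and its sign was not stable under rescaling.

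Of 6 genes of receptor glycosylation and maturation, 1 was higher and 2 were lower. FURIN, the protease that cleaves the receptor precursor in the secretory pathway, read 7.75, 7.73 and 7.84 in colonies and 9.25, 9.27 and 9.41 in parent cells. The groups were well separated, with a difference of -1.54 ± 0.06 (adjusted p = 1.24e-06), or 2.90-fold. POFUT1, which adds O-fucose to receptor EGF repeats, changed by -0.48 ± 0.05. RFNG, a fringe enzyme that extends that fucose, rose by 0.66 ± 0.06. The other fringe genes, LFNG (0.23, adjusted p = 0.111) and MFNG (0.22, adjusted p = 0.063), did not pass, although MFNG did without parent replicate 3 (0.30, adjusted p = 0.0101).

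Of 7 measured genes of receptor proteases and their complex subunits, 3 were higher and 1 lower. The gamma-secretase subunit genes NCSTN (0.51 ± 0.04) and APH1A (0.36 ± 0.05) rose, as did ADAM10 (0.22 ± 0.04), the main ligand-dependent receptor protease. ADAM17, another membrane protease that can cleave Notch, changed by -0.39 ± 0.05 (adjusted p = 0.000326). APH1B, another gamma-secretase subunit gene, had the largest difference of the list but varied widely and did not pass (0.59 ± 0.21, adjusted p = 0.052). It passed without colony replicate 1 (0.80, adjusted p = 0.0105), with arrays shifted to a common median (adjusted p = 0.0364) and with trend and robust settings (adjusted p = 0.0318). The list's median was 0.22, and no gene in it reached 2-fold.

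Among 14 measured ubiquitin ligases and trafficking genes, 5 were higher, 4 lower and 5 not past the test. MIB1, which ubiquitinates ligands for endocytosis, rose by 0.57 ± 0.11 (adjusted p = 0.00432) and DTX1, a Deltex ligase, by 0.43 ± 0.06. NEDD4, a ubiquitin ligase of many membrane proteins, changed by -0.66 ± 0.07 (adjusted p = 0.000149). None of the 14 reached 2-fold.

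In the RBPJ activator list, 3 of 8 were higher and 3 lower, RBPJ among the lower. KAT2B, a histone acetyltransferase, read 10.46, 10.50 and 10.53 in colonies and 9.46, 9.30 and 9.38 in parent cells. All colony arrays were more than 1 log2 unit above the parent arrays, and the difference was 1.12 ± 0.05 (adjusted p = 3.5e-06). Its paralogue KAT2A rose by 0.55 ± 0.06 (adjusted p = 0.000144). The Mastermind coactivator gene MAML2 changed by -0.46 ± 0.06 (adjusted p = 0.000448), and MAML3 (-0.14, adjusted p = 0.0665) did not pass. MAML3 did pass without parent replicate 2 (-0.19, adjusted p = 0.0219) and with only genes above the median expression (adjusted p = 0.0294).

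Of 11 measured corepressor genes, 5 were higher, 2 lower and 4 not past the test, with a median of 0.15. TLE1, a Groucho corepressor that HES proteins recruit, rose by 0.80 ± 0.06 (adjusted p = 3.79e-05). KDM5A, a histone H3 lysine 4 demethylase that binds RBPJ, rose by 0.63 ± 0.06. HDAC2, a histone deacetylase, changed by -0.56 ± 0.07 (adjusted p = 0.000284).

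In the list of other HES and HEY genes and reported targets, 2 of 15 were higher, 5 lower and 8 not past the test. BHLHE41, a circadian repressor related to the HES family, stood at 7.86, 7.86 and 8.02 in colonies and at an identical 10.59 on all 3 parent arrays. The difference was -2.68 ± 0.06 (adjusted p = 1.33e-07), or 6.41-fold. ID3, an inhibitor of helix-loop-helix proteins, changed by -1.32 ± 0.10, with an identical 7.52 on all 3 parent arrays. SNAI2, a transcription factor of the neural crest, rose by 1.31 ± 0.05. HES5, a Notch target of neural progenitors, averaged 7.01 in colonies and 7.12 in parent cells (-0.11 ± 0.06, adjusted p = 0.185), and HEYL averaged 6.20 in colonies and 6.32 in parent cells (-0.12 ± 0.09, adjusted p = 0.361). Without parent replicate 1 both passed (adjusted p = 0.0147 and adjusted p = 0.0199). HES7 was lower in colonies (-0.30 ± 0.06, adjusted p = 0.00323). NRARP, a feedback target of Notch, did not pass (-0.04, adjusted p = 0.629), nor did HES4 and HES6. LFNG, MFNG, ADAM10, APH1B, MAML2, MAML3, NRARP, HES4, HES6 and HES7 were chosen for mention after their values were seen.

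**Figure D5:**
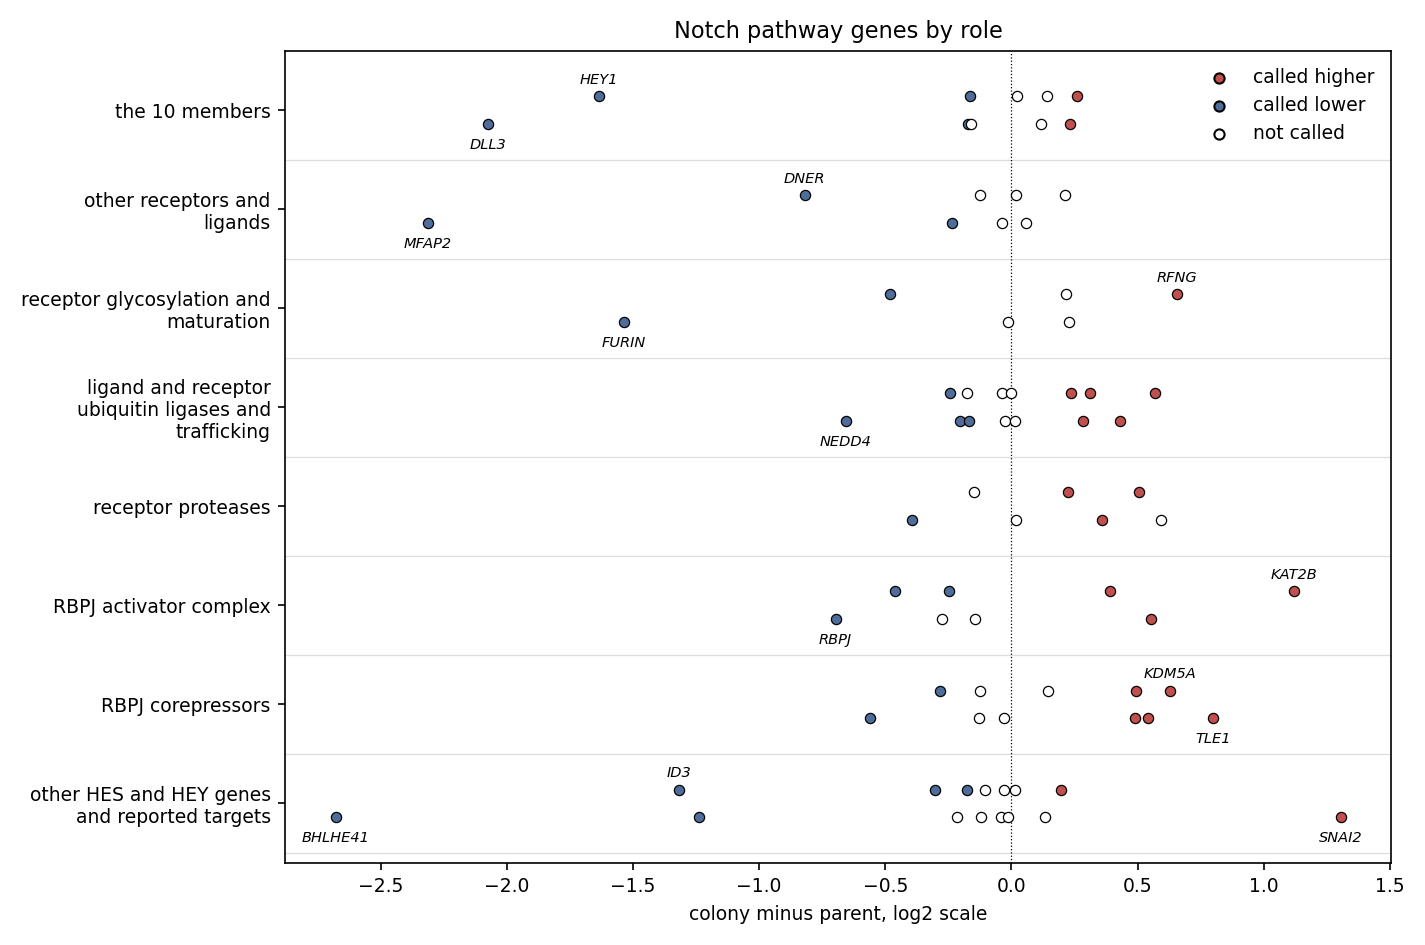
Colony minus parent difference (log2 scale) of the 10 members and of the 69 further pathway genes by role, each point a gene, coloured by call. Higher and lower genes occur in most rows, and the widest differences are the falls of BHLHE41 (-2.68), MFAP2 (-2.31), DLL3 (-2.08), HEY1 (-1.64) and FURIN (-1.54).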

How the data were processed

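RNA of 3 colony and 3 parent samples of WM164 was measured on 1-colour Affymetrix arrays. The deposited values are log2 expression values per probe set, as their range shows. Affymetrix Expression Console is listed in the submitters' processing notes. Its version, background correction and normalization were not given in the sources used here. No build is named for the array, so its probe sets are given no coordinates. RefSeq (GRCh38.p14) gave names, gene order and the promoter sequences, whose coordinates are printed. Arrays have no read depth. No column was left without a sample.

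Of 33297 probe sets, 19460 had 1 gene symbol, 1754 several and 12083 none. With the highest-mean probe set per gene, 18417 genes were fitted with limma (lmFit, eBayes, 2-sided, group as the only term), adjusted over all genes by Benjamini-Hochberg with a threshold of 0.05. Differences are colony minus parent. The fit was tested on simulated data.

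The members and lists were chosen with earlier results of these data known, and lists are described by counts, without a set test. Text names all 10 members, up to 3 called genes with the largest difference in each further list, RBPJ, NOTCH4, DLL4, HES5 and HEYL, and the genes nearest in pattern to 2 members. Other genes named were chosen after their values were seen. Neighbours are the 25 genes on each side in gene order that lie above the median expression. The alternatives were 2 rescalings, a filter on low expression, 2 treatments of probe sets, trend and robust settings, a replicate block and each array left out. Versions were R 4.3.3, limma 3.58.1, Python 3.11.15, numpy 2.4.6, pandas 2.3.3, scipy 1.17.1 and matplotlib 3.10.9.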

Additional observations from a re-analysis of the deposited data

How the results depend on the processing

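Of the named genes, 57 were compared under up to 13 alternatives, 725 values in all. HES7, MITF, TYR, COL1A1, COL1A2, COL3A1 and DCN were not among the 57. Of the 725 values, 673 kept their direction and their side of the threshold, 26 lost a call, 16 gained one and 10 changed sign. The sign changes were those of HEY2 with arrays shifted to a common median (-0.0043), of NOTCH4, and of HES4 and HES6 with an array left out (HES4 from -0.067 to 0.016, HES6 from -0.062 to 0.019). NOTCH4 gave -0.0074 with that shift, -0.013 after quantile normalization, -0.0033 without colony replicate 2, and between -0.058 (without parent replicate 1) and 0.072 (without parent replicate 3) with each array left out. DLL3 and HEY1 kept their calls in every alternative. The numbers 1 to 3 in the sample titles do not pair the samples by their deviations (correlations of -0.09, -0.06 and -0.01 between same-numbered arrays). With the replicate number as a block, 2 members were called lower rather than 4, as NOTCH2 (adjusted p = 0.0541) and JAG1 (adjusted p = 0.0658) did not pass. TYRP1 (adjusted p = 0.0632) also lost its call under the block, and APH1B gained one (adjusted p = 0.00377). With each array left out in turn, the number of members called lower ranged from 2 to 4 and that called higher from 2 to 3. The further pathway genes gave 18 to 21 higher and 19 to 25 lower calls over all alternatives, and all genes 3093 to 4805 higher and 3642 to 5095 lower. The filter on low expression left DLL1, JAG2 and 14 further named genes without a value. The cause of these changes was not tested. Among the members, the calls of NOTCH2, JAG1, DLL1 and HES1 depended on these choices. Whether dim probe sets lay above background was not tested.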

Other observations

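The genes whose 6 array values, each centred on its own mean, lay nearest to those of DLL3 were FGFR1, TC2N and EOGT, by root mean square distance over the 6 arrays. FGFR1, a receptor of fibroblast growth factors, lay at a distance of 0.03 on the log2 scale and averaged 7.17 in colonies and 9.30 in parent cells. TC2N lay at 0.04 (4.61 in colonies and 6.64 in parent cells), and EOGT, an O-GlcNAc transferase of extracellular EGF repeats, at 0.04 (7.80 in colonies and 9.89 in parent cells). EOGT was not in the list of receptor glycosylation and maturation, so its difference (-2.09) is outside the counts of that list. For NOTCH1, the largest rise among the members, the nearest were CUL4B, a ubiquitin ligase scaffold (distance 0.0054), CDKN1B, the CDK inhibitor p27 (0.0068), and PTPN12, a tyrosine phosphatase (0.014). Their differences were 0.26, 0.25 and 0.25. With 2 groups of 3 arrays this distance mostly reflects the size of the group difference.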
